A study of Mus musculus with 8 samples.

Results

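The interleukin-1 (IL-1) family and its receptors were followed here through 10 genes in mouse cortex. The members were the ligands Il1a, Il1b, Il18 and Il33, the receptor chains Il1r1, Il1rap and Il1rl1, and the antagonist or decoy proteins Il1r2, Il1rn and Il18bp. They were chosen by name. Every array probe whose RefSeq accession belongs to one of these symbols was taken, which gave 19 probes among 56605, and 10 genes among 22911 named genes with a probe. Of the 10 genes, 9 had a probe well above background in at least 4 of 16 animals and could be tested among 29362 features, whereas Il1a had none.

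Total RNA of right fronto-parietal cortex was measured on 8 Agilent 2-colour arrays in 16 mice, 4 in each of 4 groups. Floxed control mice carry a floxed allele without a lesion, and floxed cryolesioned mice carry it with a cryolesion, a local freeze injury of the cortex. Il6-deficient control and Il6-deficient cryolesioned mice lack microglia-derived Il6, without and with the same injury. The comparisons are of lesion within genotype, of genotype with and without lesion, and of the lesion response between genotypes. The Cre driver, the deleted part of Il6, and the age and time after lesion of the mice are not given in the sources used here. Il6, read by 2 probes, checks the genotype labels weakly. Floxed cryolesioned animals had 3 of 4 readings of the brighter Il6 probe well above background and a mean level of 6.50 ± 0.27 (SD, n = 4, log2 intensity), while the other groups had 0 of 4 and Il6-deficient cryolesioned animals a mean of 6.13 ± 0.08. The position of both Il6 probes relative to the deleted part was not established.

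IL-1α and IL-1β bind the receptor encoded by Il1r1, which recruits the accessory chain encoded by Il1rap and signals through MyD88 to NF-kappaB. IL-33 is a nuclear alarmin, abundant in glia of the brain, that is released by damaged cells and acts on the receptor encoded by Il1rl1 with the same accessory chain. Il1r2 encodes a decoy receptor, Il1rn a receptor antagonist and Il18bp a soluble binder of IL-18, so the family holds its own brakes.

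When both genotypes were averaged, cryolesion raised 6 of the 8 tested members that were well above background in at least 1 control, and 0 fell. Il33 rose 3.33-fold, the decoy Il1r2 2.78-fold, the accessory chain Il1rap 2.23-fold and the receptor Il1r1 2.06-fold, while Il1b rose 1.82-fold and Il18bp 1.52-fold. The antagonist Il1rn, also tested, was above background in cryolesioned animals alone, passed the filter through them, and is left out of these counts. Il18, by contrast, was bright in every animal and did not pass the test, and Il1rl1 did not pass it either. Across all 29362 features, 11.9% were called for this comparison at an adjusted p under 0.05 with limma, 6.02% higher and 5.87% lower. The median change of the 8 members was 0.95 on the log2 scale, against -0.01 over all features. Genes of X and Y, given below, were unequal between control and cryolesioned groups, so sex is partly confounded with lesion.

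Promoter sequences of 4 members are shown to print the matches found to motifs of injury-responsive transcription factors, in capitals. They are the 250 bases before an annotated RefSeq transcription start, 5′ to 3′ on the gene's strand, in build GRCm38.p6. The Il33 sequence, chr19:29945540-29945789 on the plus strand, holds TTGCATAA 85 bases before the start, and that of Il1r1, chr1:40224830-40225079 on the plus strand, holds TTGCTGAA 133 bases before it. For Il1r2, chr1:40085843-40086092 on the plus strand, the match TTCAAGGAA lies 111 bases before the start, and for Il1rn, chr2:24336610-24336859 on the plus strand, TGAGTCA lies 141 bases before it.
Il33: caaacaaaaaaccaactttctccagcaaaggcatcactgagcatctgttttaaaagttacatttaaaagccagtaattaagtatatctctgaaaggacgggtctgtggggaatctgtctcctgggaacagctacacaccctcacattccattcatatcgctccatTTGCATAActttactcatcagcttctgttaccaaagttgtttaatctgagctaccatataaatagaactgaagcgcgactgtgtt
Il1r1: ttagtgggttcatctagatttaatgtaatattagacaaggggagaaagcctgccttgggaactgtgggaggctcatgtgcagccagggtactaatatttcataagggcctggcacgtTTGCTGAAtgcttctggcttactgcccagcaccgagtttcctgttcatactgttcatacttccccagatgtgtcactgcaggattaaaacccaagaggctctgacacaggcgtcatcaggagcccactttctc
Il1r2: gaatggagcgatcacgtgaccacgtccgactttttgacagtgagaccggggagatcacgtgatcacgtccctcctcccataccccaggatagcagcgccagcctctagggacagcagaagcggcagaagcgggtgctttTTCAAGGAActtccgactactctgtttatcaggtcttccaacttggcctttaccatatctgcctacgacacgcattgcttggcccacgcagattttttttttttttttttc
Il1rn: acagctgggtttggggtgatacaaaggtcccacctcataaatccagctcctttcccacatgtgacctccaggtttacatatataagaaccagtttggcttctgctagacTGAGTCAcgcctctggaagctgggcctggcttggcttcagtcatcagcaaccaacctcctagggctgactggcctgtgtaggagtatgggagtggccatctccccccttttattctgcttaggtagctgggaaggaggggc
Both strands were searched for 4 motifs in the 15 listed promoters of the 10 members and in all 32851 promoters of the same table. The C/EBP motif TTGCNNAA was found in 4 of 15 member promoters and in 9.56% of all, the STAT motif TTCNNNGAA in 1 and in 7.02%, and the AP-1 motif TGANTCA in 2 and in 6.75%. The NF-kappaB motif GGGA, any base and TTTCC was found in 0 of 15 and in 0.356% of all. Matches did not separate the members that rose from the others. Il18bp, which rose, Il1rl1, which did not pass, and Il1a, which was not detected, also had 1 each. Il1b and Il1rap, which rose, and Il18 had none, nor did the other listed starts of Il33, Il1r1 and Il1rn. A match describes letters in the window, and its absence says nothing about the factor.

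Levels are log2 intensities after normalization within and between arrays, listed for animals 1 to 4 of a group, and levels of different probes are not comparable. Animals are numbered as in the labels. The arrays had 4 kinds of pair, 2 arrays each: the control side (both control groups), the lesion side (both cryolesioned groups), the floxed-lesion side (floxed cryolesioned with Il6-deficient control) and the deficient-lesion side (Il6-deficient cryolesioned with floxed control). Changes are log2 differences ± SE from the limma fit on array ratios, which can differ from the difference between mean levels, with Benjamini-Hochberg adjustment over all features. In whole tissue, more cells of a type and more RNA per cell cannot be told apart.

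**Figure D1:**
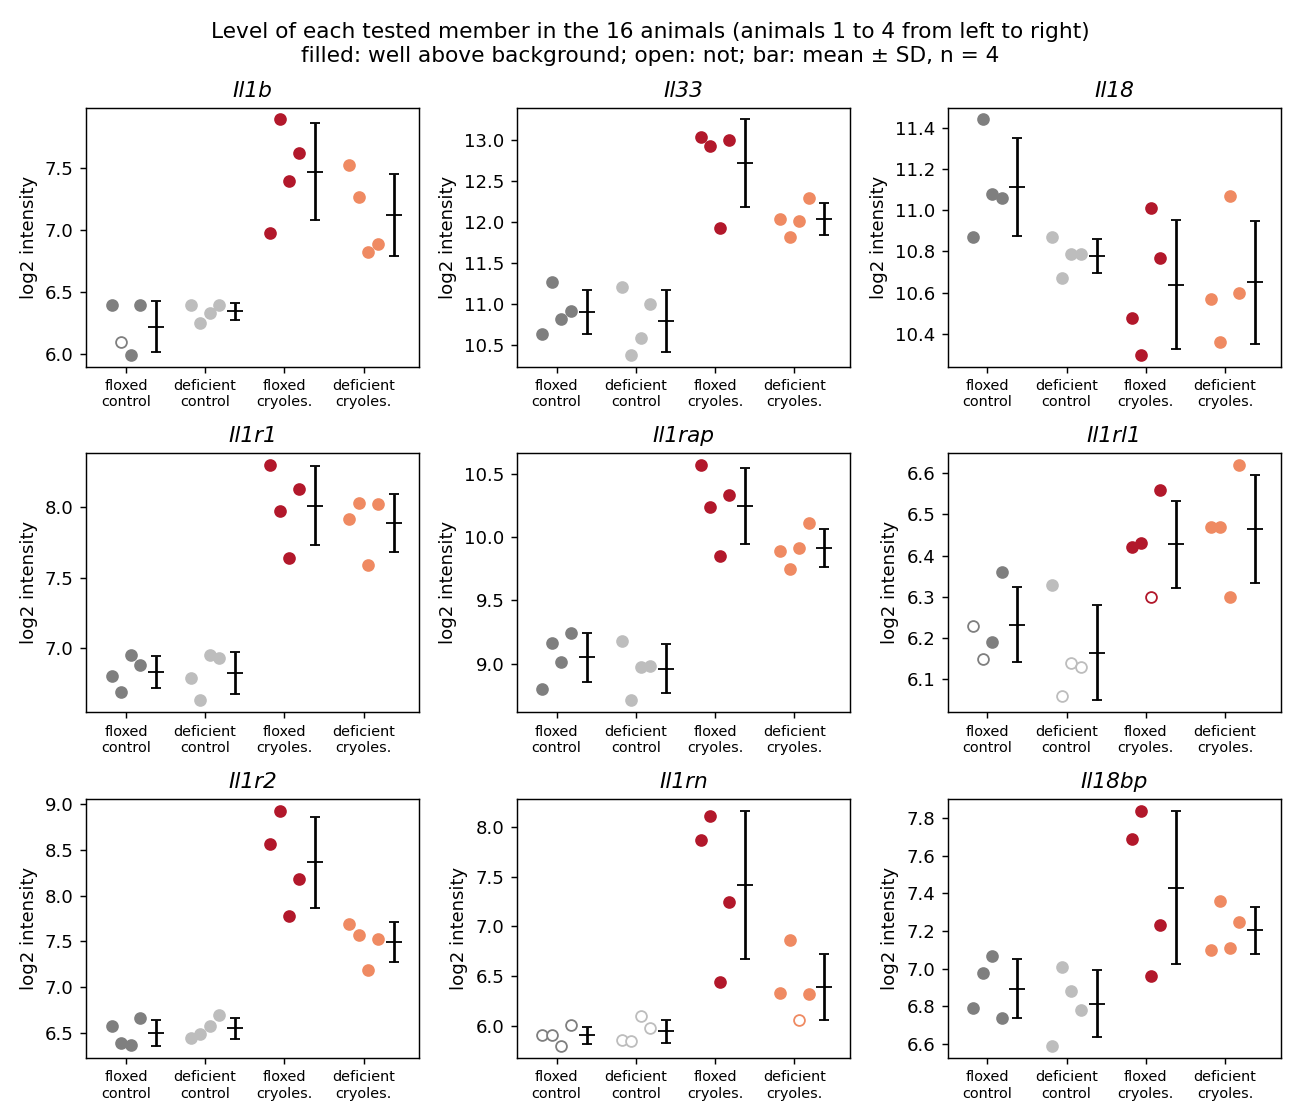
Log2 intensity of the brightest probe of each of the 9 tested members in 4 groups of 4 animals. Points are animals 1 to 4, crossed bars are mean ± SD, and open points were not well above background. Il33, Il1r1, Il1r2, Il1rap and Il1b separate all 8 cryolesioned from all 8 control animals, and the Il18 groups overlap.

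Il33, the alarmin, was bright in every animal. Its log2 intensity was 10.63, 11.27, 10.81 and 10.91 in floxed controls and 11.21, 10.38, 10.59 and 11.00 in Il6-deficient ones. Cryolesioned floxed animals 1, 2 and 4 had 12.92 to 13.03 and animal 3 had 11.92, and cryolesioned Il6-deficient animals had 12.03, 11.81, 12.01 and 12.29. All 8 cryolesioned animals lay above all 8 controls, and floxed animal 3 lay within the range of the Il6-deficient cryolesioned animals. The mean change over both genotypes was 1.74 ± 0.16 (adjusted p = 0.00179), with 1.92 ± 0.22 in floxed (adjusted p = 0.0118) and 1.55 ± 0.22 in Il6-deficient animals (adjusted p = 0.0232). A second, dimmer Il33 probe rose too, by 1.38 ± 0.09 (adjusted p = 0.00062), with 1.68 ± 0.13 in floxed and 1.09 ± 0.13 in Il6-deficient animals.

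Il1b encodes the secreted IL-1β made mainly by myeloid cells. In controls its log2 intensity was 6.39, 6.09, 5.99 and 6.39 in floxed and 6.39, 6.25, 6.33 and 6.39 in Il6-deficient animals. Cryolesioned floxed animals had 6.97, 7.89, 7.39 and 7.62, and cryolesioned Il6-deficient animals 7.52, 7.26, 6.82 and 6.88. Every cryolesioned animal was above every control. Il1b rose by 0.87 ± 0.15 on average (adjusted p = 0.0150), and by 0.66 and 0.94 without array 2 of the floxed-lesion or of the deficient-lesion side (adjusted p = 0.057 and 0.0668). Within one genotype the change was 0.96 ± 0.21 in floxed (adjusted p = 0.0628) and 0.77 ± 0.21 in Il6-deficient animals (adjusted p = 0.117), neither of which passed. A second Il1b probe was well above background in 0 of 8 controls. From levels, it averaged 1.19-fold above controls in floxed and 1.16-fold in Il6-deficient animals, with control signals counted as for Il1rn below. These values are not lower limits of the fitted changes, which were 0.15 ± 0.09 and 0.20 ± 0.09. Neither passed in limma (adjusted p = 0.396 and 0.278), nor did the mean change (adjusted p = 0.110).

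S100a8 and S100a9, and 6 monocyte and macrophage markers, rose beside Il1b. The neutrophil alarmin gene S100a8 had levels of 8.44, 10.12, 9.51 and 9.57 in floxed cryolesioned and 9.07, 8.41, 7.83 and 8.58 in Il6-deficient cryolesioned animals, against 6.27 to 6.73 in controls. S100a8 rose by 2.24 ± 0.26 (adjusted p = 0.00397) and its partner S100a9 by 2.48 ± 0.22 (adjusted p = 0.00178). Within both cryolesioned groups, the highest and the lowest animal for S100a8 were also the highest and the lowest for Il1b. Of 12 neutrophil markers 8 were tested and these 2 rose, with a list median of 0.19, while the granule genes Ngp and Ltf were well above background in 0 of 16 animals. The mean log2 level of the neutrophil list, S100a8 and S100a9 included, was 7.66 to 7.80 in controls. It was 8.31 to 8.87 in floxed cryolesioned and 8.04 to 8.53 in Il6-deficient cryolesioned animals. Of 11 tested monocyte and macrophage markers 6 rose (median 0.69), with a mean list level of 6.87 to 7.13 in controls, 7.73 to 8.42 in floxed cryolesioned and 7.48 to 7.77 in Il6-deficient cryolesioned animals. Of 10 microglia markers 1 rose and 4 fell (median -0.08), and of 10 astrocyte markers 3 rose and 3 fell (median -0.22). Of 10 neuron markers 2 fell (median -0.41), and of 10 oligodendrocyte markers 1 fell (median -0.37). Beside these counts, 6.02% of all features were called higher and 5.87% lower. The part of the listed cell types in the changes of Il1b and the other members was not tested.

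Il18 encodes a cytokine released by inflammasome activity and was bright throughout. Floxed controls had log2 intensities of 10.87, 11.44, 11.08 and 11.06, and Il6-deficient controls 10.87, 10.67, 10.79 and 10.79. Cryolesioned animals had 10.48, 10.30, 11.01 and 10.77 in floxed and 10.57, 10.36, 11.07 and 10.60 in Il6-deficient animals. The groups overlapped, and the mean change of Il18 was -0.31 ± 0.19 (95% interval -0.75 to 0.13, adjusted p = 0.324). With the ratio of Xist, a gene of the X chromosome that was unequal between groups, as a covariate, the change was -0.61 (adjusted p = 0.0444). Il1a, which encodes IL-1α, was well above background in 0 of 16 animals, with signals from 5.87 to 6.08 that have no order. No change of Il1a is given for that reason.

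Il1r1, the signalling receptor of IL-1α and IL-1β, had the smallest SE of the members that rose. Its log2 intensity was 6.80, 6.69, 6.95 and 6.88 in floxed and 6.79, 6.63, 6.95 and 6.93 in Il6-deficient controls. Cryolesioned floxed animals had 8.30, 7.97, 7.64 and 8.13 and cryolesioned Il6-deficient animals 7.92, 8.03, 7.59 and 8.02. The lowest cryolesioned animal, 7.59, lay above the highest control, 6.95, and the 2 genotypes covered nearly the same range. Il1r1 rose by 1.04 ± 0.09 (adjusted p = 0.00147), by 0.98 ± 0.12 in floxed (adjusted p = 0.0144) and by 1.11 ± 0.12 in Il6-deficient animals (adjusted p = 0.0111).

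Il1rap, the accessory chain shared by Il1r1 and Il1rl1, was read by 3 probes. The brightest, designed on NM_008364, had log2 intensities of 8.80, 9.16, 9.01 and 9.24 in floxed and 9.18, 8.71, 8.97 and 8.98 in Il6-deficient controls. After cryolesion this probe had 10.57, 10.24, 9.85 and 10.33 in floxed and 9.89, 9.75, 9.91 and 10.11 in Il6-deficient animals. All 8 cryolesioned animals were above all controls, and the rise was 1.16 ± 0.11 (adjusted p = 0.00194), with 1.28 ± 0.15 in floxed and 1.04 ± 0.15 in Il6-deficient animals (adjusted p = 0.0127 and 0.0247).

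The other 2 Il1rap probes did not move like the first. The probe designed on NM_134103 rose by 0.59 ± 0.09 (adjusted p = 0.0105). For the probe designed on NM_001159318 the change was -0.10 ± 0.18 (adjusted p = 0.761), with levels of 7.74 to 8.39 in controls and 7.50 to 8.17 in cryolesioned animals. Differences between probe pairs were tested as further features of the same fit, an analysis chosen after the values were seen. The rise was greater for NM_008364 than for NM_001159318 by 1.26 ± 0.22 (adjusted p = 0.0148), and greater than for NM_134103 by 0.57 ± 0.08 (adjusted p = 0.00902). Between NM_134103 and NM_001159318 the difference was 0.69 ± 0.17 (adjusted p = 0.0450). Within single genotypes these differences kept their direction and did not pass, with adjusted p from 0.0531 to 0.278. Which transcripts each probe reads was not established from the files.

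**Figure D2:**
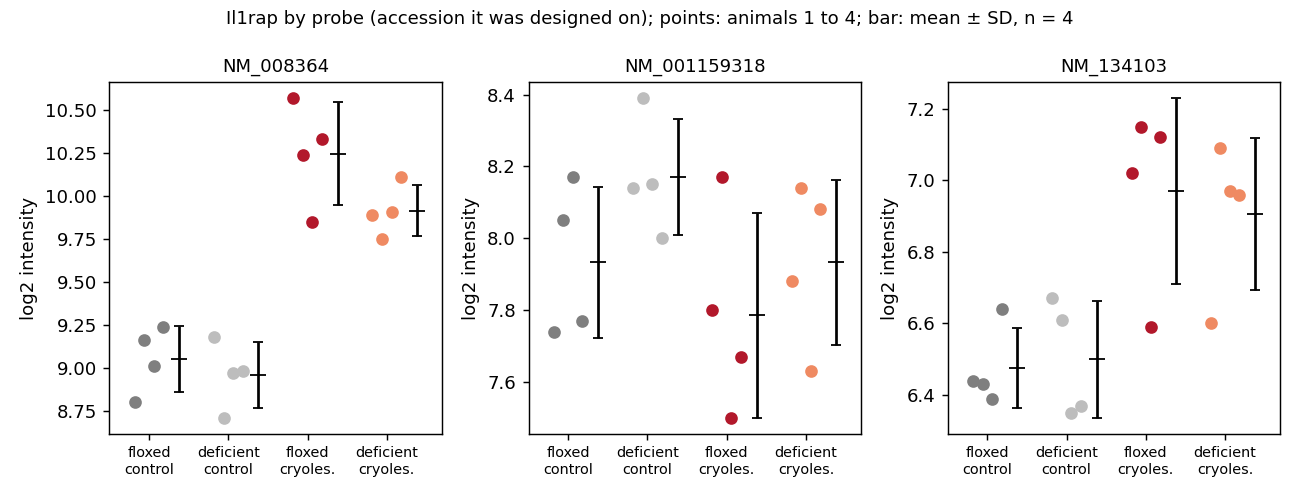
Log2 intensity of the 3 Il1rap probes by group, titled by the RefSeq accession each was designed on, with animals 1 to 4 as points and mean ± SD as crossed bars. The NM_008364 probe separates cryolesioned from control animals, the NM_134103 probe rises less, and the NM_001159318 groups overlap.

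Il1rl1 encodes the receptor of IL-33. Its brightest probe had log2 intensities of 6.23, 6.15, 6.19 and 6.36 in floxed and 6.33, 6.06, 6.14 and 6.13 in Il6-deficient controls. Cryolesioned animals had 6.42, 6.43, 6.30 and 6.56 in floxed and 6.47, 6.47, 6.30 and 6.62 in Il6-deficient animals. These levels sit near background and overlap between groups, and the change of 0.24 ± 0.07 did not pass (adjusted p = 0.0597). Under other settings its mean change passed, among them the authors' table (0.50, adjusted p = 0.0269) and the separate-channel fit (0.24, adjusted p = 0.00399). The other 2 Il1rl1 probes exceeded background in 1 and 0 of 16 animals.

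Il1r2 encodes the decoy that binds IL-1 without signalling. Controls had log2 intensities of 6.58, 6.39, 6.37 and 6.66 in floxed and 6.44, 6.49, 6.58 and 6.70 in Il6-deficient animals. Cryolesioned animals had 8.57, 8.93, 7.78 and 8.18 in floxed and 7.69, 7.57, 7.19 and 7.53 in Il6-deficient animals. Every cryolesioned animal lay above every control, and all 4 Il6-deficient cryolesioned animals lay below all 4 floxed ones, with 7.69 as the highest of the former and 7.78 as the lowest of the latter. The rise of Il1r2 was 1.48 ± 0.16 (adjusted p = 0.00329), with 1.64 ± 0.22 in floxed (adjusted p = 0.0173) and 1.31 ± 0.22 in Il6-deficient animals (adjusted p = 0.0359). A second, dimmer Il1r2 probe changed by 0.39 ± 0.12 and did not pass (adjusted p = 0.0835). Its groups overlapped, with 5.90 to 6.22 in controls, 6.11 to 6.83 in floxed cryolesioned and 6.04 to 6.24 in Il6-deficient cryolesioned animals.

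Il1rn, the receptor antagonist, was not well above background in any control. Control signals ran from 5.80 to 6.10, and after cryolesion its log2 intensity was 7.87, 8.11, 6.44 and 7.25 in floxed and 6.33, 6.86, 6.06 and 6.32 in Il6-deficient animals. From levels, floxed animals averaged 2.79-fold above their controls, and Il6-deficient animals, of which 3 of 4 were well above background, 1.29-fold above theirs. Each control counted here with the higher of the probe's own signal and the lowest signal among all probes well above background in its channel. These values are not lower limits of the fitted change, which was 2.32-fold in floxed animals. The fit on ratios spread the change more evenly, at 1.22 ± 0.28 in floxed (adjusted p = 0.0719) and 1.02 ± 0.28 in Il6-deficient animals (adjusted p = 0.118). Averaged over genotypes it gave 1.12 ± 0.20 for Il1rn (adjusted p = 0.0166), for a probe that passed the filter through cryolesioned animals alone and was not tested when 8 channels were required. Without array 1 or array 2 of the floxed-lesion side or array 2 of the deficient-lesion side it was 1.04, 0.86 and 1.27 (adjusted p = 0.0861, 0.0695 and 0.0574). Floxed animal 3, at 6.44, was the lowest of its group.

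Il18bp, the soluble binder of IL-18, was called in 10 of 18 other settings. Floxed animals had 6.79, 6.98, 7.07 and 6.74 as controls and 7.69, 7.84, 6.96 and 7.23 after cryolesion. Il6-deficient animals had 6.59, 7.01, 6.88 and 6.78 as controls and 7.10, 7.36, 7.11 and 7.25 after cryolesion. The floxed groups overlapped through animal 3, and the Il6-deficient groups did not overlap. The change of Il18bp was 0.60 ± 0.13 (adjusted p = 0.0334). It lost its call without array 1 of the control side (adjusted p = 0.0659), array 1 or 2 of the floxed-lesion side (0.133 and 0.151), array 2 of the lesion side (0.0623) or array 2 of the deficient-lesion side (0.157), at changes of 0.45 to 0.60. The call was also lost under median centring (0.57, adjusted p = 0.0574), with scanner-processed signals (1.02, adjusted p = 0.0537) and with no filter on dim probes (adjusted p = 0.0547). Its second probe also passed, at 0.36 ± 0.08 (adjusted p = 0.0307).

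Within floxed animals 4 members were called, Il1r1, Il1r2, Il1rap and Il33, where 3.05% of all features were called, 1.86% higher. The same 4 were called within Il6-deficient animals, where 2.73% of all features were, 1.67% higher. In both genotypes 0 of these calls were kept without array 1 of the control side, array 1 of the floxed-lesion side or array 2 of the lesion side, with fitted changes between 0.93 and 1.98. In floxed animals 2 were kept without array 2 of the deficient-lesion side, and in Il6-deficient animals 1 without array 2 of the floxed-lesion side and 2 without array 1 of the lesion side or array 2 of the deficient-lesion side. The 8 members without Il1rn had a median change of 0.97 with the floxed and 0.90 with the deficient genotype, against -0.01 over all features, and both comparisons share the 4 arrays that set cryolesioned against control animals. In levels, 5 members had all 8 cryolesioned animals above all 8 controls, which held for 3.24% of all features. Within floxed animals these 5 did not overlap (7.14% of all features), and within Il6-deficient animals 6 did not (7.95%), with Il18bp added. Il1rn is left out here, as its probe passed the filter through cryolesioned animals alone.

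**Figure D3:**
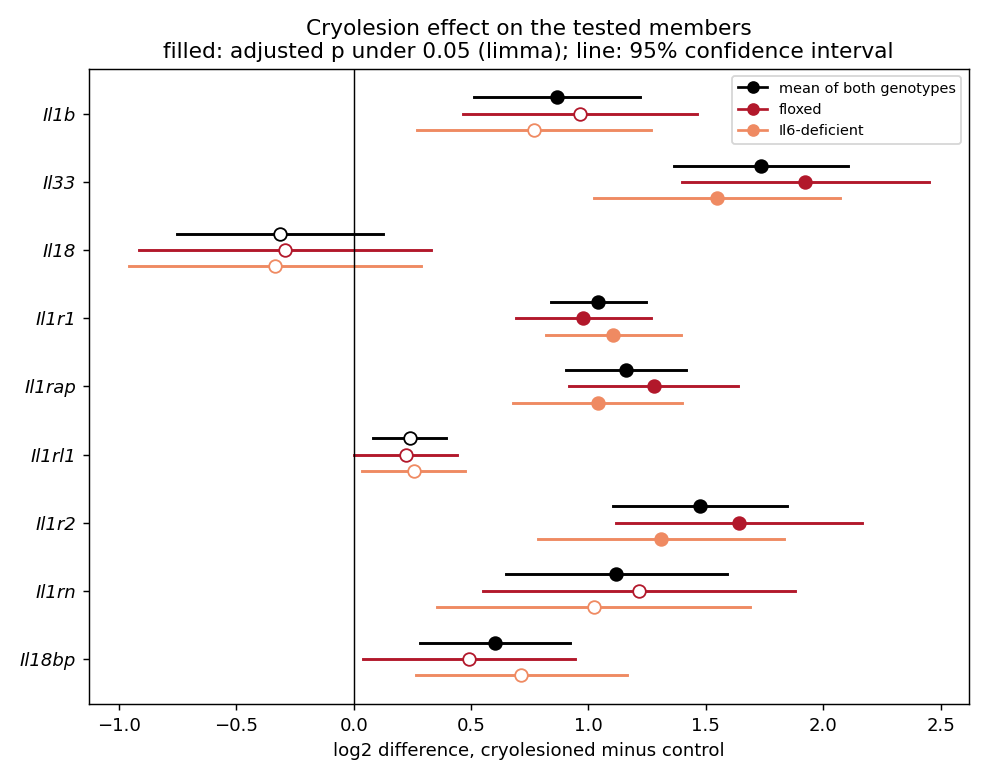
Log2 change after cryolesion for the 9 tested members, in each genotype and averaged over both, with 95% confidence intervals as lines and filled points for an adjusted p under 0.05 in limma. Il33, Il1r2, Il1rap and Il1r1 are filled in both genotypes, and the intervals of Il18 span 0.

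Floxed cryolesioned animal 3 was the lowest of its group for 6 of the 7 called members, Il1rn included, and for 64.4% of the 1768 features called higher, against 9.6% to 15.1% for each other animal of the group. Leaving out its array left 7 members called on average, 6 in floxed and 2 in Il6-deficient animals. Genes of X and Y were unequal between groups. Of the floxed controls 3 had Xist well above background, of the Il6-deficient controls 1, and of the 8 cryolesioned animals 0. The Y genes Ddx3y, Eif2s3y, Kdm5d and Uty were each well above background in 1 floxed control and 3 Il6-deficient controls. In both cryolesioned groups they were so in 4 animals. Read by these genes, controls were of mixed sex and cryolesioned animals male, so sex and lesion are partly confounded. Among controls sex was also unequal between the genotypes, so it is partly confounded with genotype there. With the Xist ratio as a covariate the same 7 members were called higher, and Il18 was called lower. Per channel, 59.2% to 65.9% of probes exceeded background. All markers of the neuron, astrocyte, microglia and oligodendrocyte lists passed the filter.

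No array set cryolesioned against control animals of the same genotype, and each member's response is thus read across genotypes. Arrays of floxed cryolesioned over Il6-deficient control animals gave log2 ratios of 2.44 and 1.92 for Il33, 1.99 and 2.23 for Il1r2 and 1.78 and 2.13 for Il1rn. Arrays of Il6-deficient cryolesioned over floxed control animals gave 1.21 and 1.38 for Il33, 0.81 and 0.87 for Il1r2 and 0.26 and 0.31 for Il1rn. The first pair of arrays was higher without overlap for Il33, Il1r2, Il1rap, Il1rl1 and Il18bp. It was so for Il1rn too, whose probe passed the filter through cryolesioned animals alone. Such a separation held for 15.2% of all features and for 63.2% of the 1768 features called higher. The difference between the 2 pairs sums the genotype differences with and without lesion. It does not read a difference in the response to cryolesion. The arrays that set Il6-deficient against floxed cryolesioned animals directly gave 0.12 and -1.19 for Il33, -0.09 and -0.61 for Il1r2 and -0.12 and -0.39 for Il1rn. For Il1r1 the corresponding ratios were 1.34 and 1.04 in the first pair, 0.64 and 1.15 in the second, and 0.29 and -0.10 directly.

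**Figure D4:**
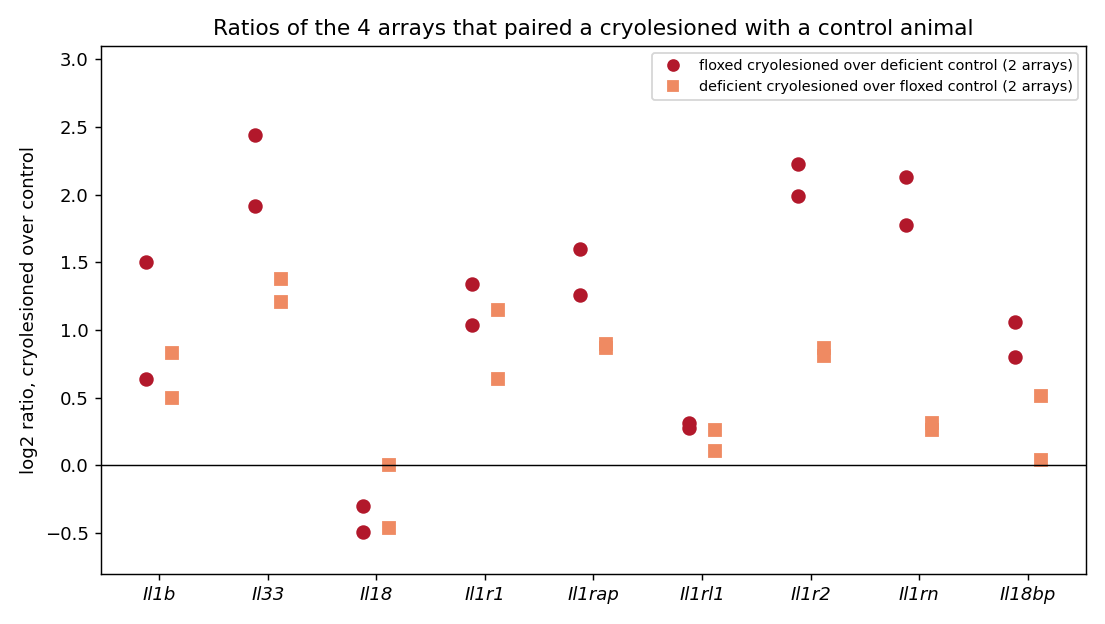
Log2 ratio of cryolesioned over control on each of the 4 arrays that paired such animals, for the 9 tested members. Circles are floxed cryolesioned over Il6-deficient control and squares Il6-deficient cryolesioned over floxed control. Circles exceed squares without overlap for Il33, Il1rap, Il1rl1, Il1r2, Il1rn and Il18bp, as they do for 15.2% of all features, and overlap for Il1b, Il1r1 and Il18. The Il1rn probe passed the filter through cryolesioned animals alone.

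After cryolesion 4 members were lower in Il6-deficient than in floxed animals at an unadjusted p under 0.05, and 0 passed the adjustment in limma. Of all features 8.61% had an unadjusted p under 0.05, 3.12% lower, and 0% were called. The difference was -0.58 ± 0.19 for Il1r2 (unadjusted p = 0.0199, adjusted p = 0.563) and -0.58 ± 0.19 for Il33 (0.0191 and 0.563). It was -0.59 ± 0.24 for Il1rn (0.0451 and 0.575) and -0.33 ± 0.13 for Il1rap (0.0400 and 0.575). The second Il33 probe was lower as well, by -0.64 ± 0.11 (adjusted p = 0.599). In the limma fit without a filter on dim probes its unadjusted p was 0.000611, and it did not pass the adjustment there either. In 18 other settings (17 for Il1rn) the sign of these 4 was kept, with adjusted p from 0.136 to 1. Non-overlap of the 4 animals with the 4 held only for Il1r2, on its brighter probe, and for 1.34% of all features. Neutrophil list levels of the cryolesioned genotypes, given with Il1b, overlapped, and monocyte list levels overlapped narrowly (7.48 to 7.77 in Il6-deficient against 7.73 to 8.42 in floxed animals), while S100a8 differed by -0.84 ± 0.31 (adjusted p = 0.574). Their part was not tested.

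For the remaining 5 members the difference did not pass either. The difference was 0.00 ± 0.10 for Il1r1, 0.00 ± 0.08 for Il1rl1 and -0.04 ± 0.16 for Il18bp, with 95% intervals of -0.25 to 0.25, -0.19 to 0.19 and -0.43 to 0.35. For Il1b it was -0.21 ± 0.18 (interval -0.64 to 0.22), and for Il18 -0.19 ± 0.23 (interval -0.72 to 0.35).

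Among controls the fitted differences of the 8 members without Il1rn lay from -0.26 ± 0.16 for Il18bp to -0.01 ± 0.18 for Il1b, and 0 of 9 reached an unadjusted p under 0.05 in limma, against 4.42% of all features (1.6% lower). The lowest adjusted p was 0.983. Xist was well above background in 3 floxed and 1 Il6-deficient controls, so sex is partly confounded with genotype here and enters the interaction. All 8 were below 0 in the fit, which reads genotype through the loop of arrays, but not in every measure. Mean levels were higher in Il6-deficient than in floxed controls for Il1b (6.34 against 6.21) and Il1r2 (6.55 against 6.50), and the direct control arrays averaged 0.08 for Il1b and 0.01 for Il1rl1. Il1rn was not well above background in either control group, so no difference is given for it. The interaction tests whether the response to cryolesion differed between genotypes. Among the 8 members without Il1rn it was below 0 for 5 and above 0 for 3. It ran from -0.38 ± 0.31 for Il33 to 0.22 ± 0.27 for Il18bp. For Il18bp the fitted sign is opposite to the levels, whose means went from 6.89 to 7.43 in floxed and from 6.82 to 7.21 in Il6-deficient animals. Its array ratios, 0.80 and 1.06 against 0.04 and 0.51, each set cryolesioned animals of one genotype against controls of the other. They cannot read the sign of the interaction. For Il1r1 (0.13 ± 0.17) and Il18 (-0.04 ± 0.37) the fitted sign is opposite to the levels too. Mean levels of Il1r1 went from 6.83 to 8.01 in floxed and from 6.82 to 7.89 in Il6-deficient animals. Those of Il18 went from 11.11 to 10.64 and from 10.78 to 10.65. On their brightest probes 0 of the members had an unadjusted p under 0.05, against 3.31% of all features (1.81% lower), and the lowest adjusted p was 1. The second Il33 probe had an interaction of -0.60 ± 0.17 in the limma fit without a filter on dim probes. Its unadjusted p was 0.0107, and it did not pass the adjustment. In all 3 genotype comparisons 0% of features were called.

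Further genes of the pathway were taken from lists. Of 19 tested genes known to be induced by IL-1 12 rose and 0 fell, with a median change of 1.57, where 6.02% of all features rose and 5.87% fell. They include Timp1, an inhibitor of metalloproteinases (4.62 ± 0.18), Cxcl10 (4.51 ± 0.55) and Ccl2 (3.86 ± 0.09), both chemokines, and Ptx3, a soluble pattern receptor (3.46 ± 0.15). Tnf was at -0.07 and did not pass (adjusted p = 0.724). Many of these genes are also induced by other cytokines, so the list is not specific to IL-1.

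Of 25 tested IL-1 receptor signalling genes 5 rose and 1 fell (all features: 6.02% and 5.87%), with a median change of 0.18. Myd88, the shared adaptor, rose by 1.44 ± 0.18 (adjusted p = 0.00567), and the NF-kappaB genes Nfkb2, Nfkbiz, Nfkbia and Relb rose by 0.92 ± 0.11, 0.88 ± 0.09, 0.80 ± 0.14 and 0.54 ± 0.10. Mapk14, which encodes p38α, fell by 0.33 on the log2 scale (adjusted p = 0.0443). Of 20 tested inflammasome and caspase genes 5 rose and 0 fell, with a median of 0.12 against -0.01 over all features. Pycard, the inflammasome adaptor, rose by 1.66 ± 0.12, Casp4 by 1.07 ± 0.06, Casp8 by 0.95 ± 0.10 and Gsdmd, the pore former, by 0.62 ± 0.08. Casp1, which cleaves IL-1β and IL-18, was at 0.17 (adjusted p = 0.270) and Nlrp3 at -0.02 (adjusted p = 0.878), neither of which passed.

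The other ligands and receptors of the family were mostly not detected. Of 11 such genes 7 were well above background in 0 of 16 animals, namely Il36a, Il36b, Il36g, Il1f10, Il18r1, Il18rap and Il1rl2. Among the 4 tested, Il1rapl2, a synaptic receptor relative, changed by -0.55 ± 0.11 (adjusted p = 0.0260), and Sigirr, an inhibitory receptor, by 0.25 ± 0.08 without passing (adjusted p = 0.0907). Il18r1 and Il18rap encode the chains of the IL-18 receptor. On chromosome 1 the coding genes Il1r2, Il1r1, Il1rl2, Il1rl1, Il18r1 and Il18rap follow each other. Of these, Il1r2 and Il1r1 rose, Il1rl1 did not pass, and the other 3 were not tested.

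Across the 16 animals, which share groups and arrays, some genes varied most like each member. The pair Il1rap and Il33 had Pearson's r of 0.98, and 0.88 after removing group means. Il1r2 and Il1rn had r of 0.94 and 0.89 within groups. Il1b was nearest to S100a8 (r = 0.975, within groups 0.90) and S100a9 (0.965 and 0.83), whereas with Il33 it had r of 0.83 overall and -0.04 within groups. Il1r2 was nearest to Dab2, an endocytic adaptor (0.990), then to Zfp36 (0.985) and Msr1, a scavenger receptor (0.983). Il18bp was nearest to Trex1 and Igtp, genes raised by interferon (0.948 and 0.947), Il1rn to Ccl9 (0.976), Il1r1 to Serpinf2 (0.981), Il18 to Sspn (0.939) and Il1rl1 to Sct (0.922). These are descriptions of how levels varied together among 16848 genes, over 16 animals.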

How the data were processed

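RNA from 16 mice was read on 8 2-colour arrays, made per the submitters' processing notes with Agilent Feature Extraction 10.7.3.1. The deposited scanner files hold median spot and background intensities, without normalization, and a processed log10 ratio, deposited by the authors, which was not used in a result. The files hold no mean signal column, so median signals replaced the planned mean. The authors' table holds deposited log2 ratios of unstated scaling. They correlated at 0.967 to 0.977 with the loess ratios, with slopes of 1.12 to 1.26, and their column medians were 0.0030, -0.0045, 0.0021, 0.0019, 0.0050, 0.0029, 0.0043 and -0.0015, so direction and centring match while the scale stays unknown.

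Background was corrected by normexp (offset 50), ratios were normalized by loess within arrays, and spots of a probe were averaged. Control and outlier spots (115 to 194 per array) were left out, and 0 spots were saturated. Of 56605 probes 32994 were named through RefSeq accessions without versions (assembly GRCm38.p6) and 23611 were not. Probes well above background in at least 4 of 16 channels were kept, and the brightest probe per gene was used, which gave 29362 features. Ratios were fitted with limma 3.58.1 (lmFit, eBayes; R 4.3.3) with a dye intercept, 4 residual and 2.95 prior degrees of freedom, and Benjamini-Hochberg adjustment; changes with an adjusted p under 0.05 were called. The fit was tested on simulated data. Levels used Aquantile between arrays. The number of arrays limits the precision. Slide and scan, each the same for every array, could not be tested as batches. Labels name biological replicates.

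Members and gene lists were chosen with earlier results of these data known. Every member is named, with the pathway genes of largest change and the genes of highest correlation with each member. Alternatives were other background corrections, normalizations, filters and probes, the authors' table, a separate-channel fit, the Xist covariate and each array left out. Intervals are 95%.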

Additional observations from a re-analysis of the deposited data

Results flagged for a closer look

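Groups of 4 animals were searched, for all 19 probes, for an animal whose gap to the nearest exceeded Dixon's 95% critical value, which chance gives in about 1 in 20 groups. It was met in 6 of 76 groups. For Il33 it was floxed cryolesioned animal 3, at 11.92 against 12.92 to 13.03 in the others of its group. The second Il1rn probe had 6.14 in Il6-deficient cryolesioned animal 2, against 5.95 to 5.98. The second Il1r2 probe had 6.22 in Il6-deficient control animal 1, against 5.99 to 6.02.

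Of the dim Il1rl1 probes, one had 5.78 in floxed cryolesioned animal 2, against 5.92 to 5.95. Another Il1rl1 probe had 8.19 in floxed cryolesioned animal 4, against 5.93 to 5.99, and 6.25 in Il6-deficient cryolesioned animal 2, against 5.90 to 5.96. Both readings came from 1 spot of 1 array, on which the Il1rl1 spot had a Cy5 median of 345.5 over a background of 76, where the other 7 arrays had 61.5 to 70. The scanner software set 3 background outlier marks for this spot on that array and 0 on the other 7. The cause was not tested.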

How the results depend on the processing

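On average over both genotypes 7 members, Il1rn among them, were called for cryolesion, 6 to 8 over the alternatives without a left-out array and 4 to 7 with an array left out. Il1r1, Il1r2, Il1rap and Il33 were called in 18 of 18 settings, Il1b in 16 of 18, Il1rn in 14 of 17 and Il18bp in 10 of 18. In floxed animals 4 were called, 3 under median centring, 7 in the separate-channel fit, 7 with the replicate block, and 0 to 6 with an array left out. In Il6-deficient animals 4 were called, 2 under median centring, 3 with scanner-processed signals or no filter, 6 in the separate-channel fits and 0 to 5 with an array left out. For both genotypes 0 were called without array 1 of the control side, array 1 of the floxed-lesion side or array 2 of the lesion side. On average 4 were called without array 2 of the floxed-lesion or of the deficient-lesion side. In the 3 genotype comparisons 0 were called in each setting, and no called change reversed its direction. Differences that were not called crossed 0: after cryolesion the genotype difference ran from -0.10 to 0.06 for Il1r1, -0.07 to 0.03 for Il1rl1, -0.33 to 0.06 for Il18 and -0.21 to 0.06 for Il18bp. Each left-out array lowers the residual degrees of freedom.

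The low levels of Il1b and Il1rn made their changes depend on the background correction: the mean rise was 2.25 for Il1b and 3.88 for Il1rn with scanner-processed signals, and 1.43 and 1.93 in the authors' table. For Il33 it ran from 1.55 to 1.93. Whether replicate numbers pair the animals was not settled. Over 24 same-number pairs the correlation of deviations ran from -0.33 to 0.46, with a median of 0.16, and 14 were over 0.1. Of 16 animals 6 correlated best with an animal of their own number. Pairs of different numbers were not summarized beside these, so the values cannot decide it. Signals near background limit Il1a, Il1rl1 and the second probes of Il1b, Il1r2 and Il1rn.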
